A study of Mus musculus with 9 samples.

Results

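The stretch of mouse chromosome 17 that carries Smchd1, chr17:66300000-76500000 of build GRCm38, held 1412 of the 225769 merged CTCF peaks of the series, or 0.625% of them. Its members were taken by position alone, as every peak that overlaps these 10.2 Mb, about 5 Mb on each side of the gene. No measured value entered this rule, although the region was picked for description with earlier results of these data known. The first member lay at chr17:66300151-66300750 and the last at chr17:76434451-76435050, while the nearest peaks left outside lay at chr17:66296101-66296550 and chr17:76503751-76504350. CTCF was profiled by ChIP-seq, the sequencing of DNA bound by a protein and pulled down with an antibody to it, in primary female neural stem cells (NSCs) grown from the cortices of E14.5 embryos. The control cells were Smchd1 GFP/GFP on a C57Bl/6 background, with GFP fused to the endogenous SMCHD1 protein (Smchd1GFP, 3 libraries). The point mutant carried the MommeD43 change, made by CRISPR on that same GFP-tagged allele and homozygous (MommeD43-GFP, 3 libraries). The null cells were Smchd1 del/del (Smchd1_del, 2 libraries), made in culture from cells with a floxed allele by a retrovirus that carries Cre and puromycin resistance, followed by drug selection. Control and point mutant shared the GFP tag and met no virus. The null lacked the tag and came from a separate, floxed mouse line, kept on the same strain background as the control. In every comparison with the null, the deletion, the virus, the selection, the missing tag and the line of origin therefore cannot be told apart. Line of origin here includes any difference in the sequence around Smchd1, which was not tested. A further library of input DNA is not in the table of peaks.

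CTCF is a zinc finger protein that binds a long, conserved DNA motif and, with cohesin, anchors chromatin loops and the boundaries between neighbouring domains. SMCHD1 is a non-canonical member of the structural maintenance of chromosomes family that takes part in gene silencing on the inactive X chromosome, at imprinted loci and at gene clusters. Sequence next to an engineered gene travels with it through breeding, so an allele that was edited, tagged or floxed can bring along the chromosome around it. The question asked of the region was therefore where, by position, CTCF in the mutants differed from control.

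For each peak the table gave 1 value per genotype, the authors' mean over libraries of log2 reads per M of the library's reads, called the level here. Since values of single libraries were not analysed here, the difference between genotypes has no replicate error and no test, and a peak was called where 2 levels lay at least 2-fold apart (a log2 difference of 1). The lowest value of each column corresponds to 0 reads in every library, from which the control libraries averaged 41.7 M reads, those of the point mutant 49.2 M and those of the null 50 M. A median peak of the region then rested on 26 reads per library in control, 30.3 in the point mutant and 30.8 in the null. Over all peaks of the series the median was 30, 34.9 and 34.5 reads in the same order. The region's peaks were thus lower, and low peaks are called more often. Shares at all levels, set beside those of all peaks, are therefore not matched for level. Each ± below is the counting standard error (SE) that these reads give to a log2 difference, and it leaves out any difference between cell lines. Over all peaks of the series the median difference from control was 0.01 in MommeD43-GFP and -0.04 in the null. No expression was measured in these libraries, so the labelled cell type could not be checked against marker genes.

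The sequences on which the results turn come first, read from the RefSeq copy of GRCm38. Exon 15 of Smchd1, which carries the MommeD43 change, is coding sequence and is shown as the edited place, with the exon in capitals.
Smchd1 exon 15, chr17:71427417-71427563 (minus strand): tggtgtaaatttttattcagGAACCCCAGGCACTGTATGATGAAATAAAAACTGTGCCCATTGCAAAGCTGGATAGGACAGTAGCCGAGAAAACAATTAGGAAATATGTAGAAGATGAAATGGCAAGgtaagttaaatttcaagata
The next 3 are the whole of 3 peaks, all intronic, at which both GFP-tagged genotypes had 0 reads while the null had reads. Capitals mark repeats as masked in the genome file.
L3mbtl4 intron, chr17:68748451-68748750 (plus strand): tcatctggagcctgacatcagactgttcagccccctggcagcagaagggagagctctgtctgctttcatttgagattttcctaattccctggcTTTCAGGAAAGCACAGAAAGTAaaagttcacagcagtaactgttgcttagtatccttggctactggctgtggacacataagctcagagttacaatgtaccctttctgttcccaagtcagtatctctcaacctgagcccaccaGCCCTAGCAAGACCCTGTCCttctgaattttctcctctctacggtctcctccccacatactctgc
AC154721.1 intron, chr17:69919201-69919500 (plus strand): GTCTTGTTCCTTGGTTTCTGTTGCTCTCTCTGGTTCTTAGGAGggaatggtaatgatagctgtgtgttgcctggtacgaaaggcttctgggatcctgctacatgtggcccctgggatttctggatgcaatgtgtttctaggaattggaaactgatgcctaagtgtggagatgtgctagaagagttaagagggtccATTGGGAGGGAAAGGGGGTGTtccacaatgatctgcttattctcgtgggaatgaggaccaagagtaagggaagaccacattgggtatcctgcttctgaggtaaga
Birc6 intron, chr17:74551951-74552250 (plus strand): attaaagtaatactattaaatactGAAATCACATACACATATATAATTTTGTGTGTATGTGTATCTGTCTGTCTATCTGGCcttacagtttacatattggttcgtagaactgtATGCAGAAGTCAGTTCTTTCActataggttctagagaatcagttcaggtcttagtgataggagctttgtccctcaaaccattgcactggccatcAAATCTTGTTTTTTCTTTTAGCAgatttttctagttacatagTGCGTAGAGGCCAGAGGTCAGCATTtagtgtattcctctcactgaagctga
The remaining sequences are the matches to the core CTCF motif, with the motif in capitals, in the 10 tallest peaks that hold it and in a peak that was higher in the null. All sites are written 5′ to 3′ on the strand that matched. Each is named by the gene that its peak overlaps or lies near, so the site itself may lie outside that gene.
Capn13, site 1, chr17:73303390-73303449 (plus strand): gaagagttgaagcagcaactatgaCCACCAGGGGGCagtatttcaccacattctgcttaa
Capn13, site 2, chr17:73305775-73305834 (plus strand): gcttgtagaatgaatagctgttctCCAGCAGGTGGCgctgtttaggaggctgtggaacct
Togaram2, chr17:71672024-71672083 (minus strand): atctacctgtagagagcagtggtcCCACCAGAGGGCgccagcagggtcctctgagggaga
Lama1, chr17:67776942-67777001 (minus strand): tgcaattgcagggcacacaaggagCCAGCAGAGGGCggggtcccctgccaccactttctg
Ptprm, chr17:66755247-66755306 (plus strand): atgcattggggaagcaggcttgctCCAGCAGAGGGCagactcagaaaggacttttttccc
Dlgap1, peak nearer to Smchd1, chr17:70738382-70738441 (plus strand): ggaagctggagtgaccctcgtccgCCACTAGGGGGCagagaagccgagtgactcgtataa
Dlgap1, peak farther from Smchd1, chr17:70683979-70684038 (minus strand): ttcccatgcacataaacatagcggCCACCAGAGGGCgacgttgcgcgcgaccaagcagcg
Alk, chr17:72606407-72606466 (plus strand): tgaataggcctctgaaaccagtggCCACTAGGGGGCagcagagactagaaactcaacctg
CT010496.1, chr17:66454740-66454799 (minus strand): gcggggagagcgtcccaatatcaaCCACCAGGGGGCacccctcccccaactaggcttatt
Galnt14, chr17:73572606-73572665 (plus strand): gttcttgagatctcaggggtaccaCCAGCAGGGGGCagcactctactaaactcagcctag
CT025601.1, chr17:66326814-66326873 (plus strand): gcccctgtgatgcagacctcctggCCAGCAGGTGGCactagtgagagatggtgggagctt
Higher in the null, near AC127693.2, chr17:69563309-69563368 (plus strand): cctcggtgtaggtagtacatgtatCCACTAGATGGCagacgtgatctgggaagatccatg

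CTCF at Smchd1 itself differed by less than 2-fold between all pairs of genotypes, except that after centring by GC content 2 of its peaks were at least 2-fold from control in the null. The gene spans chr17:71344489-71475343 on the minus strand, 130.9 kb, and 12 peaks overlapped its body and 1 more lay within 10 kb. Over these 13 peaks the median difference from control was 0.00 in MommeD43-GFP (-0.69 to 0.46, 6 higher and 7 lower) and 0.19 in the null (-0.89 to 0.59, 7 higher and 6 lower). The latter has no stable direction, since it was 0.03 after centring by GC content and -0.07 over the peaks of at least 600 bases. None held the core motif and none overlapped the outermost start of the gene. The highest by its mean over genotypes, in intron 7 (chr17:71444251-71445900), had levels of 0.58 in control, 1.04 in the point mutant and 1.18 in the null, so control lay lowest. It was higher by 0.45 ± 0.13 in MommeD43-GFP and by 0.59 ± 0.14 in the null. The order turned around in intron 3 (chr17:71458201-71460150), a peak that also covers the coding gene Gm4707, with 0.96 in control, 0.57 in the point mutant and 0.65 in the null. The intron 22 peak (chr17:71402101-71402850) had -0.37 in control, -1.06 in the point mutant and -1.15 in the null. There the difference was -0.69 ± 0.23 in MommeD43-GFP and -0.79 ± 0.26 in the null. At exon 3 (chr17:71463901-71464650) the levels were -0.26 in control, -0.61 in the point mutant and -1.15 in the null, the furthest any peak of the gene lay below control (-0.89 ± 0.26). Toward the 3′ end, the intron 45 peak (chr17:71351851-71352450) had -1.03 in control, -0.57 in the point mutant and -0.53 in the null. The other 8 peaks differed from control by -0.22 to 0.37. The peak nearest to exon 15 lay 4.5 kb from it, in intron 17 (chr17:71422201-71422950), with -0.58 in control, -0.71 in the point mutant and -0.20 in the null. Which exons the floxed allele loses is not given in the sources used here, so these peaks do not check the deletion. At 3 of the 13 peaks, those of introns 44 and 17, between 63.9% and 75% of 31-base windows occur only once in the genome, so reads there can come from other copies.

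**Figure D1:**
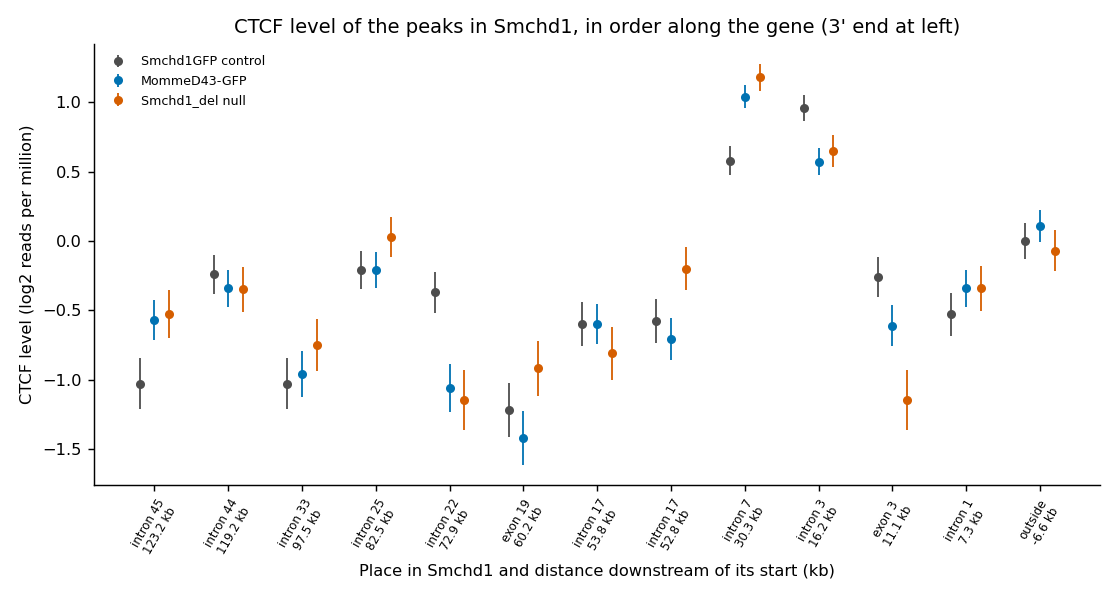
CTCF level (log2 reads per M) of the 13 peaks in and next to Smchd1 in control (grey), MommeD43-GFP (blue) and null (orange), in order from the 3′ end of the gene at left, with each peak's place and its distance from the gene's start in kb. Points are the authors' means and bars are counting SE. Control is lowest at the intron 7 peak (0.58 against 1.04 and 1.18) and highest at the intron 22 peak (-0.37 against -1.06 and -1.15).

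Across the region the median difference of MommeD43-GFP from control was -0.01 (95% order-statistic interval -0.04 to 0.02) over the 1412 peaks. At least 2-fold higher were 38 peaks, 2.69% beside 2.08% of all peaks, and at least 2-fold lower were 7, 0.496% beside 0.718%. This split depends on scaling, since 20 were higher and 21 lower once the trend of the difference on level was removed, 28 and 23 after quantile normalization, and 30 and 14 after centring by GC content. Most called peaks were low: those higher had a median of 8.44 reads per library in the genotype with fewer reads. The differences had a standard deviation (SD) of 0.438, and counting alone gives 0.238. Over all peaks of the series these were 0.428 and 0.218. Among the 551 peaks at or above median level of all peaks, 2 were higher (0.363% beside 0.255%) and 0 lower (beside 0.0514%). The count higher was 1 after centring by GC content and 0 with a pseudocount of 1 read per M, while the counts at all levels became 15 and 1 with a pseudocount of 0.1 and 0 and 0 with 1.

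The 2 taller peaks lay on the distal side of Smchd1. At chr17:75616801-75617850, in the 50 kb before the pseudogene AC102354.1, the levels were -0.91 in control, 0.59 in the point mutant and 1.16 in the null, so control stood below both mutants. It was 2.82-fold higher in MommeD43-GFP and 4.18-fold higher in the null (2.06 ± 0.20 on the log2 scale). The neighbouring peak chr17:75618751-75620400 had 0.64 in control, 1.48 in the point mutant and 1.56 in the null, in the same order but under 2-fold. The other peak, at a start of Lclat1 (chr17:73202401-73203300), whose product acylates lysocardiolipin, had -1.05 in control, 0.10 in the point mutant and -0.06 in the null. It held a core motif and was higher by 1.15 ± 0.22 in MommeD43-GFP, and just under 2-fold higher in the null (0.99 ± 0.24). Under 2-fold, the 8 next peaks of the 10 furthest above control were higher by 0.71 to 0.84, among them intronic peaks of Ptprm, a receptor phosphatase of cell adhesion, and of Arhgap28. The Ptprm peak chr17:67349401-67350150 had -0.13 in control, 0.71 in the point mutant and 0.23 in the null. The Arhgap28 peak chr17:67869451-67870950 had 1.99 in control, 2.71 in the point mutant and 2.80 in the null, a high peak in all 3 genotypes. Furthest below control among the taller peaks was another in an Arhgap28 intron (chr17:67989301-67990500), with 0.49 in control, -0.38 in the point mutant and 0.25 in the null (-0.86 ± 0.17). At Xdh, which encodes the purine-degrading enzyme xanthine dehydrogenase, the peak chr17:73885801-73886700 had 0.10 in control, -0.69 in the point mutant and -0.64 in the null. At an L3mbtl4 intron (chr17:68624701-68625750) the levels were 0.03 in control, -0.74 in the point mutant and -0.40 in the null.

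The null differed from control by at least 2-fold at more peaks than MommeD43-GFP did, as it also did over all peaks of the series. Its column averages 2 libraries and that of MommeD43-GFP 3. The median difference of the null from control was -0.02 (-0.07 to 0.02), with an SD of 0.577 beside 0.258 from counting. Over all peaks the SD was 0.510 beside 0.242. At least 2-fold higher were 55 peaks, 3.9% beside 3.31% of all peaks, and at least 2-fold lower were 22, 1.56% beside 1.85%. At least 4-fold, 13 were higher (0.921% beside 0.281%) and 0 lower (beside 0.0385%), and 10 were higher without the 3 peaks at 0 reads in both tagged genotypes. Among the 567 peaks at or above median level, 12 were higher (2.12% beside 1.5%) and 1 lower (0.176% beside 0.314%). A pseudocount of 0.1 gave 30 higher and 5 lower at all levels and a pseudocount of 1 gave 4 and 0, of which 3 and 0 were at or above median level. The 12 had a median GC content of 41.9%, against 47.7% over the region, and 3 of them held a core motif. After centring by GC content 10 peaks were higher, and the part of GC content in the result was otherwise not tested.

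Among those 12 was a Rasgrp3 intron peak (chr17:75459901-75461400). Rasgrp3 encodes an exchange factor that activates Ras. The levels were -0.25 in control, -0.36 in the point mutant and 1.82 in the null, 34.9, 38.3 and 176 reads per library, so the null lay above both tagged genotypes (2.07 ± 0.16 from control). A core-motif peak near AC127693.2 (chr17:69562351-69564150) had 0.28 in control, 0.58 in the point mutant and 1.86 in the null (1.58 ± 0.14). Its motif is among the sequences above. At Trmt61b, which encodes a mitochondrial tRNA methyltransferase, an exonic peak 0.086 Mb from the Smchd1 start (chr17:71561251-71562000) had -1.45 in control, -0.09 in the point mutant and 0.56 in the null. Both mutants thus lay above control there, by 1.36 ± 0.25 and 2.01 ± 0.24. The intergenic peak chr17:75930451-75931650 had the same order, with -1.25 in control, -0.15 in the point mutant and 0.84 in the null. So did chr17:75779251-75780900, with -0.28 in control, 0.39 in the point mutant and 1.05 in the null. The single taller peak at least 2-fold lower, in an intron of the long noncoding RNA gene AC151280.3 (chr17:68042551-68043450), had 0.13 in control, -0.41 in the point mutant and -0.99 in the null (-1.12 ± 0.24). Next below it came peaks in Ptprm, in Alk, a receptor tyrosine kinase, and in Ndc80, a kinetochore protein that binds microtubules. The Ndc80 peak (chr17:71509501-71510850), 0.035 Mb from the Smchd1 start, had 0.48 in control, 0.30 in the point mutant and -0.43 in the null (-0.91 ± 0.20). The Alk peak chr17:72143701-72145650 had 1.21 in control, 0.98 in the point mutant and 0.31 in the null (-0.90 ± 0.15).

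Set directly against each other, without control, MommeD43-GFP and the null had a median difference of 0.01 (-0.02 to 0.04). MommeD43-GFP was at least 2-fold higher at 21 peaks, 1.49% beside 1.26% of all peaks, and at least 2-fold lower at 28, 1.98% beside 1.08%. Once the trend on level was removed the numbers were 12 and 34, and after quantile normalization 18 and 43. Among the 560 peaks at or above median level 0 were higher (beside 0.085%) and 5 lower (0.893% beside 0.292%). The 5 were the Rasgrp3 peak (-2.18 ± 0.15), the AC127693.2 peak (-1.28 ± 0.12), and peaks at Ltbp1, Ttc27 and Fam98a. Near Ltbp1, which encodes a binding protein of latent TGF-beta, the peak chr17:75406201-75406950 had -2.28 in control, -1.23 in the point mutant and 0.30 in the null. The Ttc27 intron peak (chr17:74809501-74812200), which held a core motif, had 1.43 in control, 0.93 in the point mutant and 2.28 in the null, so control lay between the mutants. The Fam98a peak (chr17:75536251-75537600) had -0.20 in control, -0.01 in the point mutant and 1.06 in the null. All 3 comparisons share columns, since both mutants were set against the same control.

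**Figure D2:**
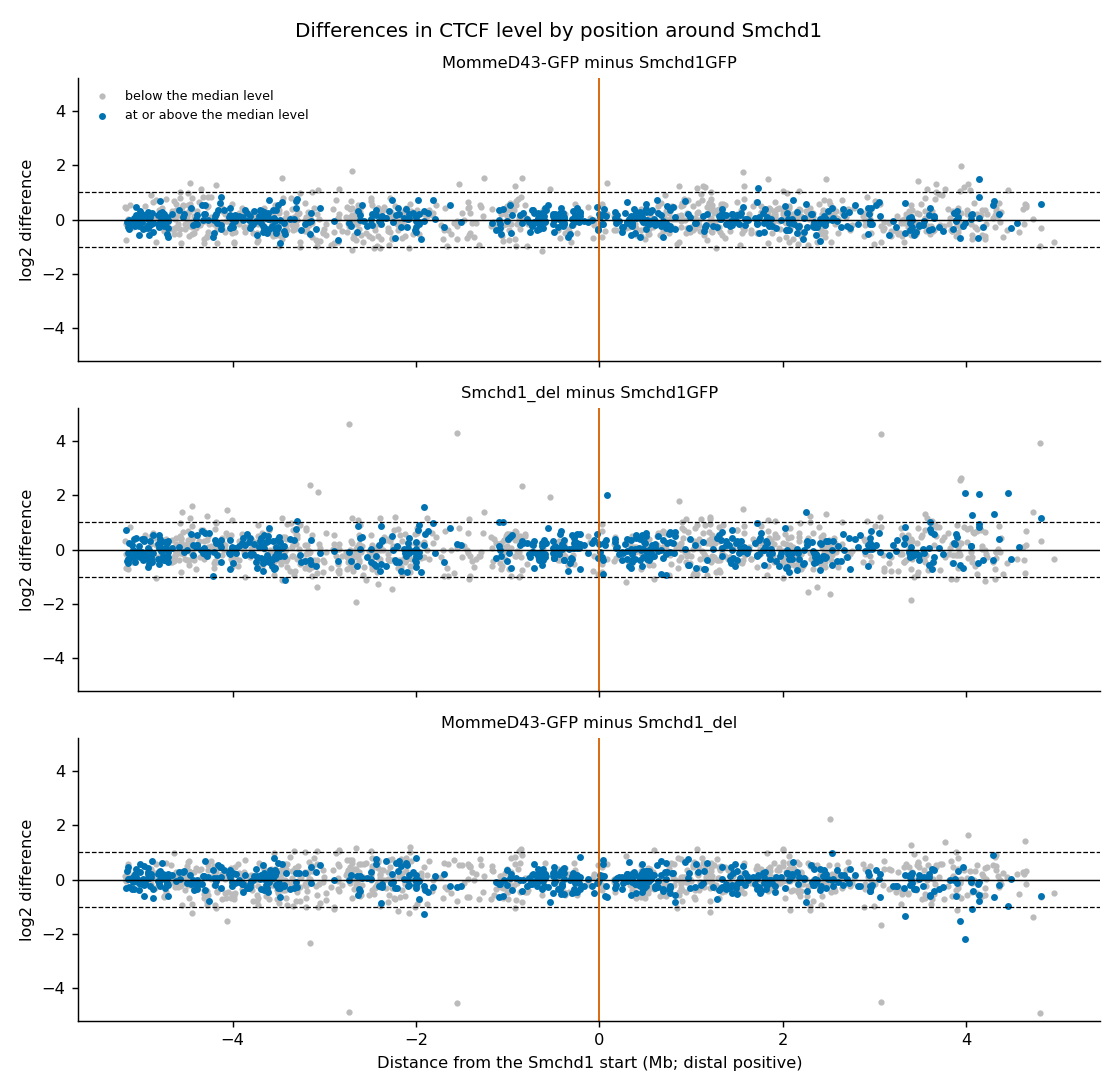
Difference in CTCF level (log2) of every peak of the region against its distance from the Smchd1 start in Mb (orange line), for MommeD43-GFP minus control, null minus control and MommeD43-GFP minus null. Blue points are at or above median level, grey points below it, and dashed lines mark 2-fold. MommeD43-GFP has 38 higher peaks (2.69% beside 2.08% of all peaks) and 7 lower (0.496% beside 0.718%). Of those higher, 12 of 348 peaks lie 0.5 to 2.5 Mb distal of the gene and 12 of 232 farther out. On the proximal side the same distances hold 4 of 243 and 8 of 443. The null has 13 peaks at least 4-fold above control (0.921% beside 0.281% of all peaks) and 0 at least 4-fold below.

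In the null 15 peaks (1.06%, beside 0.501% of all peaks) lay at least 2-fold above both tagged genotypes, and 6 (0.425%, beside 0.0213%) at least 4-fold. This pattern was looked at after values were seen, and a pseudocount of 1 read per M left 2 and 0 such peaks. Peaks were called per genotype and merged, so a peak low in both tagged genotypes may be listed only through its reads in the null. In which genotype each peak was called was not examined, so these shares are not evidence of an excess in the region. Without the 3 peaks at 0 reads described next, 12 and 3 were left. On autosomes 37 peaks of the series lay at least 4-fold above both, of which 6 were in this region and 2 on the rest of chromosome 17. At least 2-fold below both were 6 peaks (0.425%, beside 0.477%). Both mutants were at least 2-fold above control at 17 peaks (1.2%, beside 1.13%) and at least 2-fold below it at 0 (beside 0.148%).

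At 3 of the 6 peaks, those printed whole above, control and MommeD43-GFP had 0 reads in all of their libraries. In the whole table only 4 peaks had 0 reads in both tagged genotypes, and the 3 on autosomes were these. Control had 0 reads at 5 peaks of the series, MommeD43-GFP at 33 and the null at 3. The first lay in an intron of L3mbtl4, which encodes a protein with malignant brain tumour repeats (chr17:68748451-68748750). The null had a level of -0.90 there, or 26.7 reads per library, at least 22.3-fold above control and at least 26.3-fold above MommeD43-GFP, taking 3 reads over a group's libraries as the floor. The second lay in an intron of the noncoding gene AC154721.1 (chr17:69919201-69919500), with -1.24 in the null, 21.2 reads per library, at least 17.7-fold above control and at least 20.9-fold above MommeD43-GFP. The third lay in an intron of Birc6, whose product is a large ubiquitin-conjugating inhibitor of apoptosis (chr17:74551951-74552250). It had -1.27 in the null, 20.8 reads per library, at least 17.3-fold above control and at least 20.5-fold above MommeD43-GFP. So the null alone had reads at all 3, which follows from how the peaks were listed. They were called per genotype and merged, so a peak with 0 reads in both tagged genotypes is listed only through the null. The folds and the count of such peaks are therefore of peaks picked by their reads in the null. The input is not in the table, so whether the tagged cells hold this DNA as in the reference was not tested, and the folds are of reads, not shown to be of CTCF binding. Each is 300 bases long, and 100% of its 31-base windows occur once in the genome.

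The nearest peaks on either side of these 3 had reads in every genotype. The peak 2.25 kb before the L3mbtl4 peak had -0.29 in control, -0.40 in the point mutant and -0.38 in the null, and that 2.85 kb after it had -1.44, -1.35 and -2.08 in the same order. On the near side of the Birc6 peak, 0.151 kb away, another (chr17:74551501-74551800) had -1.98 in control, -2.79 in the point mutant and -1.13 in the null. The peak 1.5 kb after that of AC154721.1 had -0.62 in control, -0.67 in the point mutant and -0.40 in the null. The other neighbours were farther off, 27.2 kb before the AC154721.1 peak with -0.65, -0.79 and -1.53 in the same order, and 13.4 kb after the Birc6 peak where control had -0.60, the null -0.79 and the point mutant less than both. Reads between peaks are not in the table.

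Another 3 peaks had some reads in the tagged genotypes and at least 4-fold more in the null. Those with few reads in both tagged genotypes may likewise be listed only through the null. The Rasgrp3 peak is described above. A second L3mbtl4 intron peak (chr17:68321101-68321400) had -3.48 in control, -3.41 in the point mutant and -1.09 in the null, 3.73, 4.63 and 23.5 reads per library. The peak over the processed pseudogene Gm16391 (chr17:76284301-76285200) had -3.32 in control, -4.32 in the point mutant and 0.61 in the null, 4.16, 2.47 and 76.5 reads per library. There 65.4% of 31-base windows occur once in the genome, so part of its reads could belong to copies elsewhere. Its neighbours were also higher in the null. The peak 81.8 kb before it (chr17:76201801-76202550) had -1.33 in control, -1.31 in the point mutant and 0.07 in the null. That 9.45 kb after it (chr17:76294651-76295550) had -0.56, 0.00 and 0.60 in the same order. In the former 74.9% of 31-base windows occur once, and 77.6% of the latter is masked as repeat. Part of the reads at both could thus also belong to copies elsewhere. The remaining peaks of the 15 lay 2-fold to 4-fold above the higher of the tagged genotypes, at Ptprm, L3mbtl4, AC127693.2, Gm26963, Ehd3, Ltbp1 and Fam98a and at 2 places with no start within 50 kb.

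**Figure D3:**
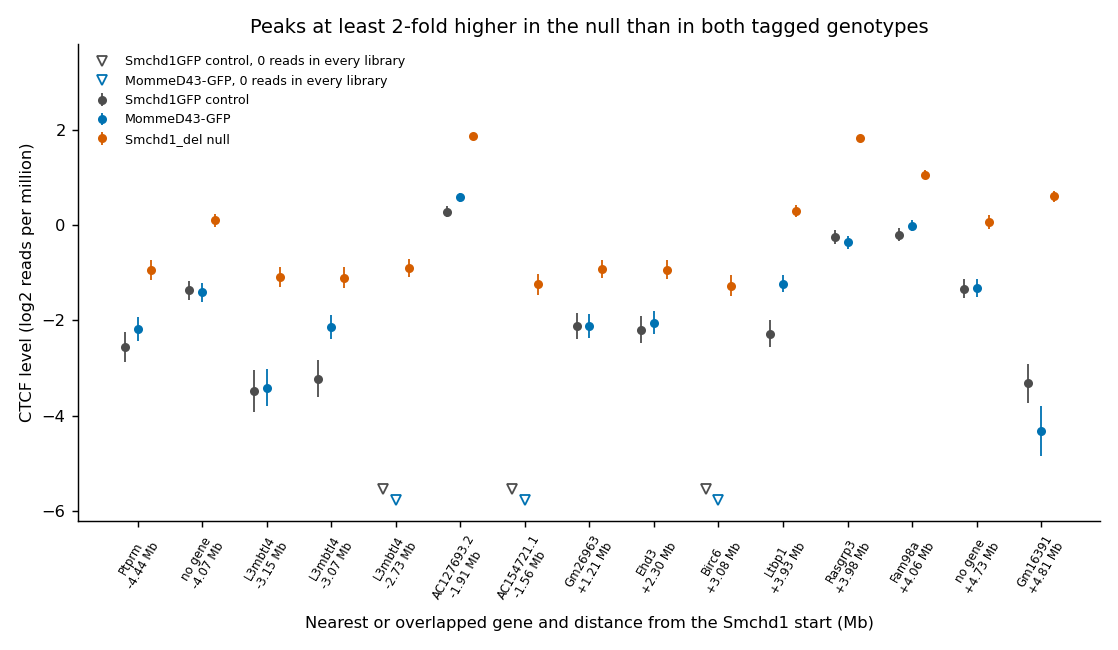
CTCF level (log2 reads per M) of the 15 peaks at least 2-fold higher in the null (orange) than in control (grey) and MommeD43-GFP (blue), in order of position, with the gene and the distance from the Smchd1 start in Mb. Bars are counting SE and open triangles mark 0 reads in every library, drawn at the lowest value of the column. At 3 peaks both tagged genotypes have triangles, while the null lies at -0.90, -1.24 and -1.27.

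**Figure D4:**
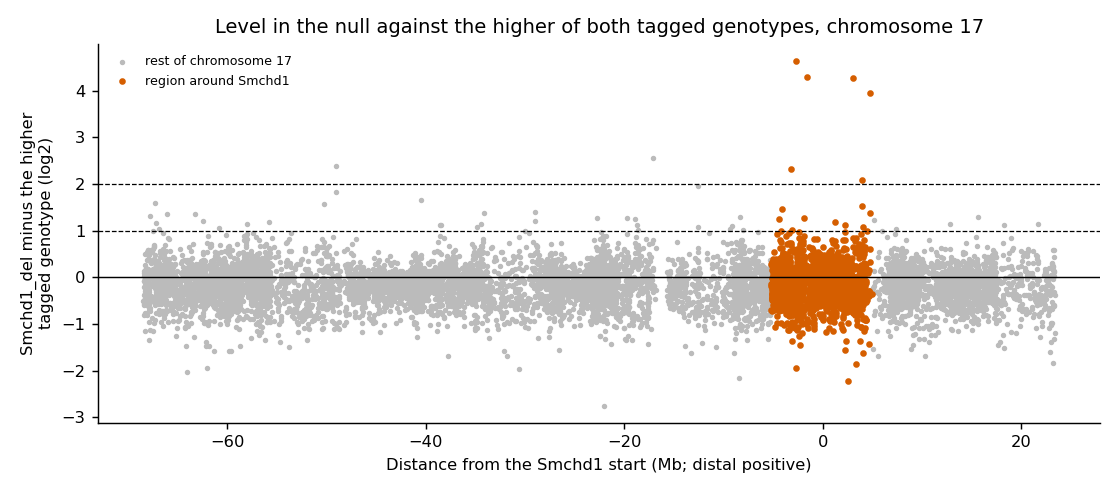
Level in the null minus the higher of both tagged genotypes (log2) for every peak of chromosome 17 against distance from the Smchd1 start in Mb, with the region in orange and the rest of the chromosome in grey. Dashed lines mark 2-fold and 4-fold. The 6 orange points at or above 4-fold fall on both sides of the gene, and 2 grey points do so on the rest of the chromosome.

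By position, the medians of windows in the region lay within the range of the rest of the chromosome. Over the 10 windows of 1 Mb with at least 20 peaks the median difference ran from -0.08 to 0.11 in MommeD43-GFP, and over 82 windows of the rest of chromosome 17 from -0.20 to 0.18. In the null the same ranges were -0.14 to 0.09 and -0.39 to 0.20. For MommeD43-GFP minus the null they were -0.04 to 0.07 and -0.19 to 0.27. The share of peaks at least 2-fold from control did vary along the stretch. It was lowest at Smchd1 itself, in the window from 71.3 to 72.3 Mb, for MommeD43-GFP (0.709% of 141 peaks), and there 2.13% in the null. It was highest for both in the window from 75.3 to 76.3 Mb, which holds Rasgrp3 and the peaks around AC102354.1, with 8.24% of 85 peaks in the point mutant and 16.5% in the null. In that window 7 peaks were higher and 0 lower in MommeD43-GFP, and 10 higher and 4 lower in the null. The other windows of the chromosome reached 15.4% in MommeD43-GFP and 21.4% in the null, but in windows of 26 and 28 peaks. The latter, from 76.5 to 77.5 Mb, lies directly after the region. A window of 56 peaks, from 81.5 to 82.5 Mb, had 8.93% and 17.9%. Among the other windows with at least 85 peaks the highest shares were 6.98% in MommeD43-GFP and 13.5% in the null. The window from 75.3 to 76.3 Mb thus lay inside the range of all windows. It was picked as the highest of the region and 85 is its own number of peaks, so that cut does not show that it stands out. The sole peak beyond the last full window was left out.

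Peaks were also grouped by distance from the gene, to be read against 2.08% higher and 0.718% lower of all peaks in MommeD43-GFP and 3.31% and 1.85% in the null. Within 0.5 Mb of the gene body the median differences lay between -0.03 and 0.06 in all 3 comparisons and on both sides. Of the 67 peaks on each side there, 1 on each side was at least 2-fold higher in MommeD43-GFP, and likewise 1 on each side in the null, while 1 proximal peak was lower in MommeD43-GFP and 1 distal peak in the null. Between 0.5 and 2.5 Mb, MommeD43-GFP had 4 peaks higher and 3 lower of 243 on the proximal side, toward the centromere, and 12 higher and 1 lower of 348 on the distal side, and the null 9 and 4 proximal and 13 and 4 distal. Beyond 2.5 Mb it had 8 higher and 2 lower of 443 proximal peaks, and 12 higher (5.17%) and 0 lower of 232 distal peaks. The null had 13 higher and 6 lower of the same proximal peaks, and 18 higher (7.76%) and 7 lower (3.02%) of the distal peaks. Neighbouring peaks are not independent, and no test of position was made.

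Peaks with 1 genotype apart from both others were counted here and in 2 stretches of 10 Mb, chosen with earlier results of these data known. MommeD43-GFP was at least 2-fold below both other genotypes at 1 peak here (0.0708%, beside 0.169% of all peaks), at 71 of 895 peaks (7.93%) between 18 and 28 Mb of chromosome 12, and at 35 of 971 (3.6%) between 30 and 40 Mb of chromosome 15. The 1 peak here, named after its value was seen, lay near AC122487.1 (chr17:69397651-69398250), with -1.04 in control, -2.07 in the point mutant and -0.84 in the null. The null was at least 4-fold above both tagged genotypes at 6 peaks here (0.425%), at 11 on the chromosome 12 stretch (1.23%) and at 0 on the chromosome 15 stretch. At least 2-fold above both it was at 15 here (1.06%), 51 on the chromosome 12 stretch (5.7%) and 12 on the chromosome 15 stretch (1.24%). Against control alone, the null was at least 4-fold higher at 13 peaks here (0.921%), 14 on the chromosome 12 stretch (1.56%) and 5 on the chromosome 15 stretch (0.515%). It was at least 4-fold lower at 0, 0 and 1 in the same order. MommeD43-GFP had 0 reads in every library at 3 peaks here, at 17 on the chromosome 12 stretch and at 4 on the chromosome 15 stretch, but only here did control have 0 reads at the same peaks. These are counts with no test of the difference.

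**Figure D5:**
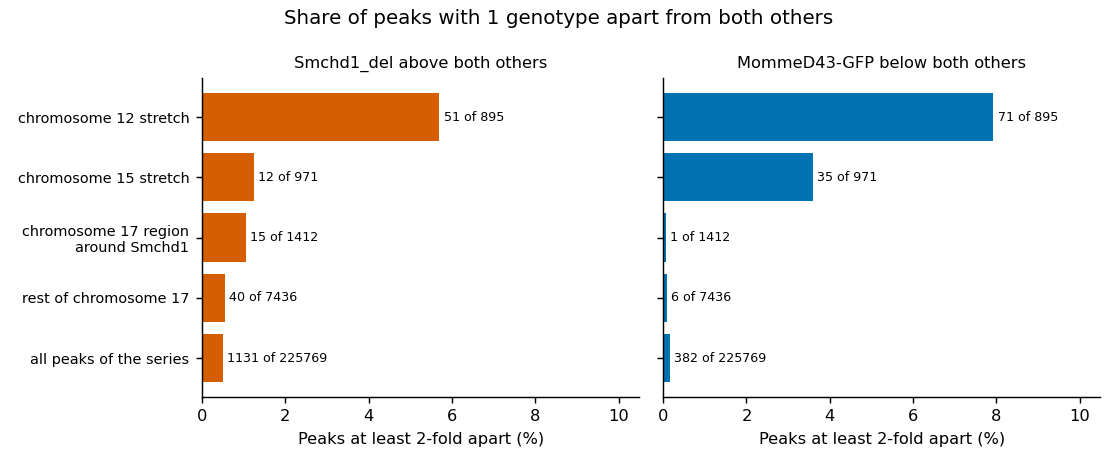
Share of peaks (%) at which the null lay at least 2-fold above both other genotypes (left) and MommeD43-GFP at least 2-fold below both (right), for all peaks, the rest of chromosome 17, the region around Smchd1 and the chromosome 15 and 12 stretches, with counts beside the bars. The region has 1.06% and 0.0708%, against 5.7% and 7.93% on the chromosome 12 stretch.

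Grouped by gene, the median differences of the lists from control ran from -0.17 to 0.06, beside -0.01 and -0.02 over the region. The counts below stand beside 2.08% higher and 0.718% lower of all peaks in MommeD43-GFP and 3.31% and 1.85% in the null. Of the listed genes, 8 of 10 within 0.5 Mb of Smchd1 were found, with 56 peaks, whose median difference was 0.05 in MommeD43-GFP and 0.06 in the null. There 1 peak was higher and 1 lower in MommeD43-GFP and 1 higher in the null. The lower one, in Tgif1, which encodes a homeobox repressor of TGF-beta signalling (chr17:70844551-70845300), had 0.02 in control, -1.14 in the point mutant and -0.56 in the null. Neural, adhesion and signalling genes (14 of 18 found) held 664 peaks with medians of -0.03 and -0.01. Of these, 19 were higher and 3 lower in MommeD43-GFP, and 22 higher and 6 lower in the null. The lowest in the null was at a start of Epb41l3, whose product links the membrane to the cytoskeleton (chr17:69208501-69209250), with -0.17 in control, -0.85 in the point mutant and -1.62 in the null. The highest in MommeD43-GFP lay in an intron of Dlgap1, a postsynaptic scaffold gene (chr17:70211851-70212300), with -2.53 in control, -0.99 in the point mutant and -1.13 in the null. Genes of cell division and genome maintenance (5 of 11) held 39 peaks with medians of -0.10 and -0.17, and 1 was higher in MommeD43-GFP and 3 in the null. Housekeeping genes (13 of 18) held 90 peaks with medians of 0.00 and 0.03. Their peaks numbered 2 higher and 0 lower in MommeD43-GFP, and 3 higher and 1 lower in the null, the latter at Clip4 (chr17:71769001-71769450) with -1.01 in control, -1.33 in the point mutant and -2.19 in the null. Metabolic and tissue-restricted genes (9 of 10) held 106 peaks with medians of -0.01 and 0.02, of which 2 were higher in MommeD43-GFP and 3 in the null. The highest in MommeD43-GFP, a Capn13 intron peak (chr17:73311751-73312050), had -2.88 in control, -1.38 in the point mutant and -1.79 in the null. The medians are ranks in the middle of each list, so they do not move when the peaks at 0 reads are set to their floor.

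The region was dense in peaks, 138 per Mb against 82.8 over the genome, and more of them lay in introns (53% against 35.4% of all peaks). At promoters, within 1 kb of a transcription start, lay 9.77% against 12.9%, and between genes 27.6% against 40.5%. The core CTCF motif, counted on both strands, was present in 29 peaks (2.05% against 3.79% of all peaks). A relaxed form that keeps only its 7 least variable bases was present in 18.4% against 24.5%. Peaks with the core motif were high, with a median level of 1.87 in control, 2.26 in the point mutant and 2.42 in the null, while the region's medians were -0.68, -0.70 and -0.70. Their median difference was 0.14 (0.07 to 0.31) in MommeD43-GFP and 0.23 (0.10 to 0.35) in the null, beside 0.05 and 0.13 for core-motif peaks of the whole series. These medians were not repeated under the other scalings, and their intervals are over peaks, which are not replicates. Over the region GC content had a median of 47.7%, against 47.8% over all peaks, and peak length a median of 750 bases in both.

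The tallest peaks differed little between genotypes. The tallest of all (chr17:73298251-73307550) overlapped untranslated sequence at the 3′ end of Capn13, which encodes a calpain protease. It had 4.79 in control, 4.87 in the point mutant and 5.05 in the null. Both sites printed above lie in this peak but outside the gene, which spans chr17:73306464-73400866 on the minus strand. At the start of Mtcl1, whose product crosslinks microtubules (chr17:66446101-66452100), the levels were 3.93 in control, 3.87 in the point mutant and 3.89 in the null. At Togaram2 (chr17:71668501-71674800) they were 3.45, 3.61 and 3.56 in the same order. At Emilin2, which encodes a glycoprotein of the extracellular matrix (chr17:71252101-71257350), they were 3.24, 3.16 and 3.30. The last of the tallest 5, over the pseudogene AC139750.1 (chr17:66679501-66683700), had 3.12, 3.37 and 3.40. Among the 10 tallest peaks with a core motif, the difference from control was at most 0.34 ± 0.06 in MommeD43-GFP, at a coding exon of Lama1, which encodes a laminin chain (chr17:67775551-67781250). The furthest in the null was the peak near CT025601.1 (chr17:66325051-66329100), at -0.41 ± 0.08. All 10 thus stayed under 2-fold in both mutants.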

How the data were processed

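CTCF ChIP-seq libraries (8 by genotype, and an input library) were made from NSCs, about 15 M cells each for CTCF, and sequenced as 75-base single-end reads. The authors trimmed reads with Trim Galore 0.4.4 and cutadapt 2.9 and aligned them with Bowtie2 2.3.4.1 (per the submitters' notes) to GRCm38, extended them by 180 bases, called peaks per genotype and merged overlapping peaks. The deposited table holds log2 values, which are the authors' mean per genotype of log2 reads per M of library, and no values of single libraries. Groups came from the labels, which number the replicates and do not say whether they are separate cultures. The paper gives 3 biological replicates per genotype for CTCF, whereas the labels hold 2 libraries of the null.

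The table showed the following about its own making. All low values with a read product under 20 (29, 20 and 21 of them) fell on whole products within 0.01 when 0 reads were entered as 0.9, which gave library sizes and reads per peak. The counting SE follows from those reads, and the floor is 3 reads over a group's libraries. Differences were taken between columns as deposited. No p-value, SD over replicates or test was possible with 1 value per genotype. Interval bounds of medians are 95% order-statistic intervals over peaks, which are not replicates. Peaks were annotated with GENCODE M21, and all 21 chromosomes of the table fitted the lengths of the RefSeq copy of GRCm38. Uniqueness was measured with windows of 31 bases on both strands. Scripts used Python 3.11.15, pandas 2.3.3, numpy 2.4.6, scipy 1.17.1 and statsmodels 0.14.6, and were tested on simulated data.

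Named peaks were every peak of Smchd1, the 10 furthest above and below in each comparison at or above median level (the level being the mean of the columns compared), the 5 tallest, the 10 tallest with a core motif, the extremes of each gene list, and those at least 2-fold from control in both mutants. The text describes a selection of these. The region, the gene lists and the stretches compared were chosen with earlier results of these data known. Alternatives were other scalings, GC centring, pseudocounts, filters on level and length, other thresholds and smaller regions. The study's own differential tests were not used. The guide and repair template were not used here.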

Additional observations from a re-analysis of the deposited data

How the results depend on the processing

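No paired analysis was possible because the table gives 1 mean per genotype, and for the same reason leaving out a replicate was not run. The median differences stayed between -0.06 and 0.04 over the region under every alternative, and over the Smchd1 peaks between -0.06 and 0.03 for MommeD43-GFP and between -0.07 and 0.28 for the null against control, and between -0.08 and 0.00 for MommeD43-GFP against the null. With each column centred on its median, the null lay 0.04 from control and MommeD43-GFP -0.03 from the null. MommeD43-GFP minus the null was also -0.03 after quantile normalization and GC centring and -0.04 after removal of the trend on level.

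Counts at all levels are given as higher and lower. MommeD43-GFP against control had 23 lower after quantile normalization, 20 and 21 after removal of the trend, 14 lower after GC centring, 15 and 1 with a pseudocount of 0.1, and 0 and 0 with a pseudocount of 1. The null against control had 30 and 5 with a pseudocount of 0.1, and 4 and 0 with 1. MommeD43-GFP against the null had 43 lower after quantile normalization, 12 higher after removal of the trend, 4 and 12 with a pseudocount of 0.1, and 0 and 3 with 1. Pseudocounts shrink low peaks by construction. At or above median level, the null had 3 higher and 0 lower with a pseudocount of 1, and 0 lower with 0.1. MommeD43-GFP had 0 higher of its 2 with a pseudocount of 1 and 1 after GC centring, and 2 lower than the null with a pseudocount of 1. After GC centring 2 peaks of Smchd1 were at least 2-fold from control in the null. The cause was not tested.

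Filters left fewer peaks. At or above median level the counts were 2 and 0, 12 and 1, and 0 and 5 for MommeD43-GFP against control, the null against control and MommeD43-GFP against the null. Peaks of 600 bases or longer gave 20 higher, 27 and 12, and 12 and 11. Within 2.5 Mb of the gene body they were 18 higher, 24 and 9, and 9 and 10, and at or above median level 1 higher, 4 and 0, and 1 lower. A threshold of 1.5-fold gave 117 and 105, 175 and 156, and 115 and 131, or 22 and 13, 45 and 42, and 25 and 27 at or above median level. At 4-fold the counts were 0 and 0, 13 and 0, and 1 and 6, or 0 higher, 4 and 0, and 1 lower at or above median level. The 1 peak at 4-fold above the null lay near Gm24475 (chr17:73994101-73994400; levels of -1.91 in control, -1.34 in the point mutant and -3.56 in the null).

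Chosen after seeing the data, the 15 and 6 peaks higher in the null than in both tagged genotypes became 2 and 0 with a pseudocount of 1. The Rasgrp3 and Gm16391 peaks were at least 2-fold higher in the null in 6 of 6 settings, the 3 peaks at 0 reads in 5 of 6. Without those 3 peaks the 15 and 6 became 12 and 3, and the 6 peaks at least 4-fold lower in MommeD43-GFP than in the null became 3, while the 2-fold counts of the 3 comparisons moved by less than 1.5 times. With 1 mean per genotype and about 30 reads per library at a median peak, differences under 2-fold at low peaks were not resolved, and counting error leaves out variation between lines.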
